A study of Notophthalmus viridescens with 3 samples.

Results

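Among the 1242 miRNA names on a microarray of newt heart RNA, 7 are names that later work tied to fragments of abundant noncoding RNAs, and their levels before any scaling between arrays are described here. They are hsa-miR-1826, hsa-miR-1280, hsa-miR-720, hsa-miR-1260, hsa-miR-1973, hsa-miR-1274a and hsa-miR-1274b. They were picked by name, with earlier results of these data known, and all 7 have 1 probe in 3 replicate spots on each array. Of the 7, 4 were detected on every array, hsa-miR-1260 was detected on 2 arrays, and hsa-miR-1274a and hsa-miR-1274b were detected on none. Of all 1242 names, 138 were detected on every array, these 4 included.

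The study took whole hearts of adult red-spotted newts (Notophthalmus viridescens), an amphibian whose injured heart muscle grows back. The 3 samples were an uninjured heart preparation and hearts at 7 and 21 days post injury (dpi), with 1 array for each. The labels refer to an earlier publication for the injury and do not state how many animals each sample holds. All 3 assays started from 0.5 µg of total RNA, labelled at its 3′ end by an adapter that takes up the dye Cy3. Groups of 1 sample allow neither a replicate check nor a test, and every error given is the spread of 3 spots on an array, which is technical. In these whole-heart samples fewer cells of a type and less RNA per cell cannot be told apart.

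Transfer RNAs (tRNAs) carry amino acids to the ribosome, and ribosomal RNAs (rRNAs) form its core. Both far outweigh miRNAs in total RNA, and pieces of them appear among small RNA reads, which is how several such pieces came to be listed as miRNAs. Mature tRNAs end in the bases CCA, which an enzyme adds after transcription and to which the amino acid is attached. These roles and the matches below are known from human RNA. No newt genome was used, so whether the newt carries the same fragments was not tested.

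The target sequences of the probes, as deposited, are shown because they carry the link to tRNA and rRNA. They are written 5′ to 3′, with the seed, bases 2 to 8, in capitals.
hsa-miR-1826: aUUGAUCAucgacacuucgaacgcaau
hsa-miR-1280: uCCCACCGcugccaccc
hsa-miR-720: uCUCGCUGgggccucca
hsa-miR-1260: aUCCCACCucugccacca
hsa-miR-1260b: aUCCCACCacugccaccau
hsa-miR-1274a: gUCCCUGUucaggcgcca
hsa-miR-1274b: uCCCUGUUcgggcgcca
hsa-miR-1973: aCCGUGCAaagguagcaua

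In human RNA, hsa-miR-1826 matches 5.8S rRNA, a small rRNA of the large ribosomal subunit. The leucine tRNA group is matched by hsa-miR-1280 and hsa-miR-1260, threonine tRNA by hsa-miR-720 and lysine tRNA by hsa-miR-1274a and hsa-miR-1274b. The sequence of hsa-miR-1973 lies in the large mitochondrial rRNA. The name hsa-miR-1260b is no member, and is shown as the nearest sequence to hsa-miR-1260. Targets ending in CCA were 4 of the 7 members, against 25 of all 1365 miRNA targets on the array, or 1.83%. Targets of 18 bases or fewer were 5 of the 7, against 85 of 1365, or 6.23%. The members were chosen for ties to tRNA, rRNA or mitochondrial RNA, so both shares describe that choice and are not evidence for it. The median target on the array had 22 bases and a GC content of 47.8%. The 4 CCA members held 61.1% to 70.6% GC, and hsa-miR-1280, which ends in CCC, held 76.5%. At 27 bases, hsa-miR-1826 was among the 3 longest targets on the array. Of the other 21 targets ending in CCA, 3 were detected on all arrays, beside 138 of all 1242 names.

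Some members differ by so few bases that their probes may bind each other's RNA. Positions here are counted from 1 at the 5′ end of the first name of each pair. The targets of hsa-miR-1260 and hsa-miR-1260b match at 17 of 18 bases, with the difference U9A, and share a seed. That of hsa-miR-1280 matches hsa-miR-1260 at 15 of 17 bases, with G8U and C17A, and hsa-miR-1260b at 15 of 17, with G8A and C17A. The targets of hsa-miR-1274a and hsa-miR-1274b match at 16 of 17 bases, with A11G, and their seeds are offset by 1 base. No other target on the array came near hsa-miR-1826, hsa-miR-720 or hsa-miR-1973, whose best overlaps of 16 or more bases matched at 12 of 18, 12 of 16 and 11 of 16.

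A level below is the deposited spot intensity minus the median of the 587 empty spots of that array, which was 68.0, 71.7 and 71.4 on the uninjured, 7 dpi and 21 dpi arrays. A name counts as detected if its median spot is brighter than percentile 95 of the empty ones, a level of 5.81, 5.81 and 31.7 on the same arrays, so the 21 dpi array has the highest detection level. Where a name had probes for several species, the probe with the highest mean intensity over the 3 arrays was kept. The 1365 miRNA probes thus gave 1242 names, with the choice made on these same data. Detected names numbered 186, 184 and 147, of which 138 were shared by all 3 arrays. Heart and striated-muscle miRNAs were detected as 6, 5 and 5 of 7 names, with miR-208a on none, and their summed level was 24080, 7805 and 21900. Leukocyte miRNAs were 3, 3 and 4 of 4 names, with summed levels of 172, 302 and 637, and erythroid miRNAs 2, 1 and 2 of 3, with 3462, 1123 and 4066 and miR-486-5p on none. The median level of the 138 shared names also fell at 7 dpi, at 406, 151 and 556 on the 3 arrays. These sums weigh bright probes most, as hsa-miR-1 alone read 14382 on the uninjured array, and they do not count cells. The part of these cell types in the members' levels was not tested. Probe brightness depends on how well a probe binds, so levels of different probes are not amounts to be set against each other, and ranks are given only to place a member on its array.

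The references moved apart before scaling. Over the 134 shared names that are no members, the median log2 ratio to the uninjured array was -1.38 at 7 dpi and 0.38 at 21 dpi. The 14 probes for 5S rRNA detected on all arrays, made for human, frog and zebrafish 5S rRNA, stood at -0.10 and 0.35. They ranged from -0.49 to 0.69 and from 0.00 to 1.17. The 16 spike-in probes, which read RNA added by the service provider in amounts that the labels do not give, stood at 0.46 and 1.46. At 7 dpi the miRNA names were thus dimmer while the 5S rRNA probes stayed near the uninjured array. The members below are set mainly beside the shared names and the 5S rRNA probes, and ratios to the uninjured array also beside the spike-in median.

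**Figure D1:**
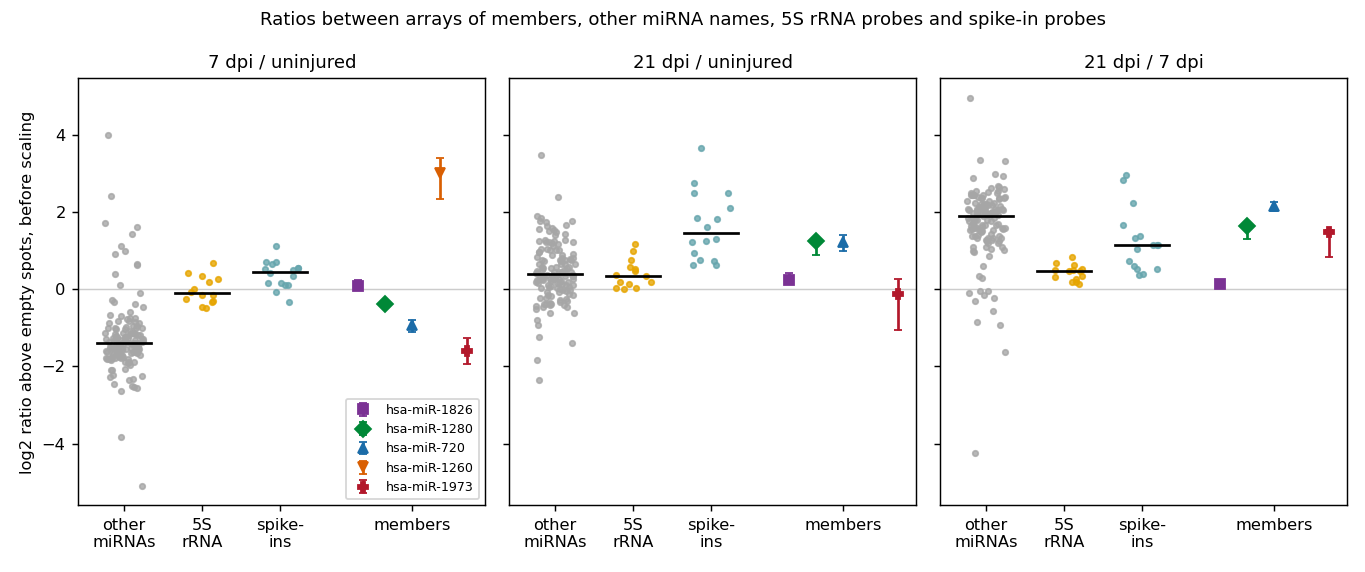
Log2 ratios between arrays before scaling, with 1 panel per comparison. Grey points are the other shared miRNA names, yellow points the 5S rRNA probes and teal points the spike-in probes, with their medians as black bars. Coloured symbols are the members detected on both arrays, and their bars run from the lowest to the highest ratio between single spots. In the 7 dpi panel the miRNA median is -1.38 and the 5S rRNA median -0.10.

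The brightest miRNA probe on each of the 3 arrays was hsa-miR-1826, the name that matches 5.8S rRNA. Its spots read 31870, 35275 and 35507 on the uninjured array, 36163, 37518 and 37584 at 7 dpi, and 38774, 41353 and 42976 at 21 dpi. The arrays do not overlap, but they lie close, with no spot of one array more than 0.43 log2 units above a spot of another. The log2 ratio to the uninjured array was 0.09 (spots 0.03 to 0.24) at 7 dpi and 0.23 (spots 0.13 to 0.43) at 21 dpi. Relative to the median of the other shared names the 7 dpi ratio was 1.47, and relative to the 5S rRNA median it was 0.19, with 12 of 134 names and 5 of 14 5S rRNA probes higher. At 21 dpi these relative values were -0.16 and -0.13, with 84 names and 8 5S rRNA probes higher. Relative to the spike-in median the ratio was -0.37 at 7 dpi and -1.23 at 21 dpi. So the ratios of hsa-miR-1826 to the uninjured array lay within the range of all 14 5S rRNA probes, bright and dim, while at 7 dpi 122 of the 134 names lay lower. Between 7 and 21 dpi its ratio of 0.14 lay just below all 14 5S rRNA probes, which began at 0.15.

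Ratios also varied with brightness. The highest member spot was 35575, 37656 and 43047 in raw intensity, while the brightest spot of any kind on these arrays reached 51819, 50530 and 56844, so the spots of hsa-miR-1826 were not at the top of the scale. At 21 dpi bright probes had ratios closer to 0. The 5 spike-in probes above 10000 on the uninjured array had a median log2 ratio of 0.73 and a range of 0.62 to 0.93, and the 8 below 2000 had a median of 2.30. For the 5S rRNA probes the 21 dpi medians were 0.19 over 5 bright probes and 0.99 over 3 dim probes. At 7 dpi the bright and dim medians were 0.16 and 0.61 for the spike-ins and -0.31 and 0.35 for 5S rRNA. The ratios of hsa-miR-1826 lay above the bright 5S rRNA medians and below all 5 bright spike-ins at both times. At 7 dpi its ratio lay above all 5 bright 5S rRNA probes, which ran from -0.489 to -0.001. The part of brightness in its ratios was not tested.

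**Figure D2:**
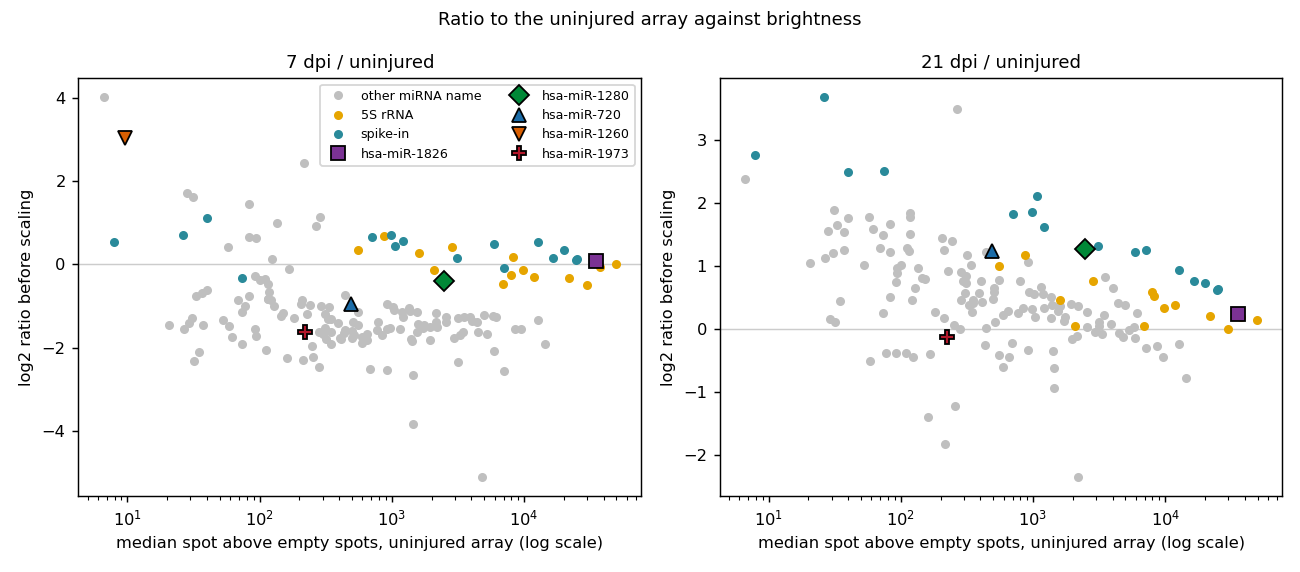
Log2 ratio to the uninjured array against the median spot above the empty spots on the uninjured array (log scale), at 7 dpi on the left and at 21 dpi on the right. Points are other shared miRNA names (grey), 5S rRNA probes (yellow), spike-in probes (teal) and members (outlined symbols). Spike-in ratios at 21 dpi come closer to 0 with rising brightness, from a median of 2.30 for dim probes to 0.73 for bright ones. At the bright end, hsa-miR-1826 lies within the ratio range of all 5S rRNA probes, and at 7 dpi above the 5 bright ones.

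The name that matches leucine tRNA with the brighter signal among the members, hsa-miR-1280, was lower at 7 dpi and higher at 21 dpi than in the uninjured heart. Its spots read 2394, 2461 and 2571 on the uninjured array, 1859, 1881 and 1918 at 7 dpi, and 4746, 5896 and 6034 at 21 dpi. No spots overlap between any of the arrays. The log2 ratio was -0.39 (spots -0.47 to -0.32) at 7 dpi and 1.26 (spots 0.88 to 1.33), or 2.40-fold, at 21 dpi. Its rank went from 25 on the uninjured array to 9 at 7 dpi and 11 at 21 dpi. Relative to the median of the shared names its 7 dpi ratio was 0.99, with 16 of 134 higher, and relative to 5S rRNA it was -0.29, with 12 of 14 probes higher. At 21 dpi these relative values were 0.88 and 0.91, with 18 names and 0 of the 14 5S rRNA probes higher. The name thus stood above most miRNA names at both times, and above the 5S rRNA probes at 21 dpi but not at 7 dpi. It lay below the spike-in median at both times, by -0.85 at 7 dpi and -0.20 at 21 dpi.

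The threonine tRNA name hsa-miR-720 moved in the same directions from a lower level. Its spots read 458, 490 and 546 on the uninjured array, 253, 256 and 266 at 7 dpi, and 1086, 1151 and 1213 at 21 dpi, again without overlap. The log2 ratio was -0.94 (spots -1.11 to -0.78) at 7 dpi, 1.92-fold lower, and 1.23 (spots 0.99 to 1.40), 2.35-fold higher, at 21 dpi. Relative to the shared names the 7 dpi ratio was 0.44, with 28 of 134 higher, and relative to 5S rRNA it was -0.84, below each of the 14 probes. At 21 dpi these relative values were 0.85 and 0.88, above each of the 14 probes. Relative to the spike-in median the ratio was -1.40 at 7 dpi and -0.23 at 21 dpi. The 3 dim 5S rRNA probes, below 2000 on the uninjured array, had a median ratio of 0.99 at 21 dpi and reached 1.17, against 1.23 for hsa-miR-720. The part of brightness in its ratios was not tested. Between the injured hearts the log2 ratio of 21 dpi over 7 dpi was 1.65 for hsa-miR-1280 and 2.17 for hsa-miR-720. The medians were 1.91 for the shared names, 0.48 for 5S rRNA and 1.155 for the spike-ins. Lying below the uninjured array at 7 dpi and above it at 21 dpi was common. Of the 134 other shared names, 122 had a lower level at 7 dpi and 101 a higher level at 21 dpi. By a joint count stricter than these signs, 56 of the 134 (41.8%) stood on opposite sides of the uninjured array. That share is near the 2 of 4 members detected on all 3 arrays.

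**Figure D3:**
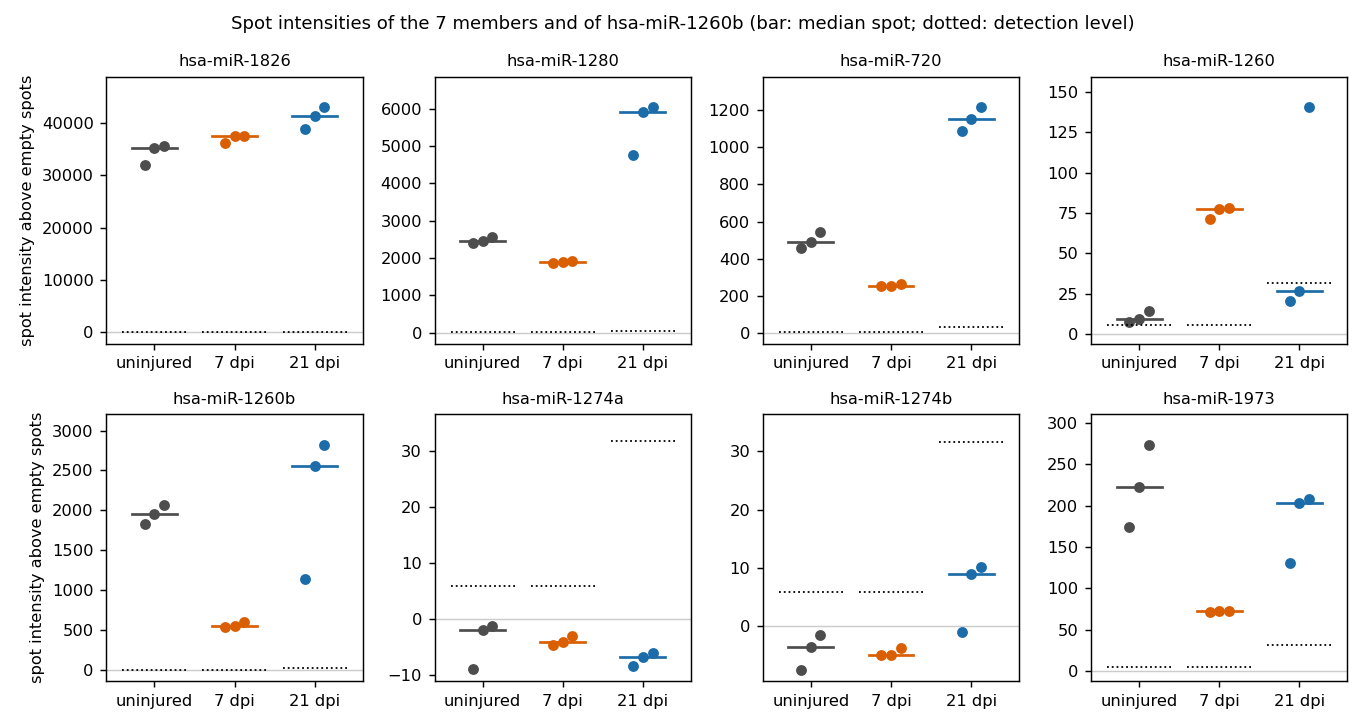
Spot intensity above the empty spots for the 7 members and for hsa-miR-1260b, with 1 panel per name and its own linear axis. Points are the 3 spots on the uninjured (grey), 7 dpi (orange) and 21 dpi (blue) arrays, bars the median spot and dotted lines the detection level. For hsa-miR-1280 and hsa-miR-720 the 7 dpi spots lie lowest and the 21 dpi spots highest. All spots of hsa-miR-1274a and hsa-miR-1274b lie below the detection level.

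The dim leucine tRNA name hsa-miR-1260 had its clearest signal at 7 dpi. Its spots read 7.36, 9.56 and 14.1 on the uninjured array, 71.4, 77.6 and 78.0 at 7 dpi, and 20.6, 26.8 and 141 at 21 dpi, where its median spot was below the detection level of 31.7. The log2 ratio at 7 dpi was 3.02 (spots 2.34 to 3.41), or 8.12-fold higher, and 2.56 relative to the spike-in median. In rank, 1 of 134 shared names and 0 of 14 5S rRNA probes stood higher. The shared names leave out any name undetected at 21 dpi, as hsa-miR-1260 was, so this rank does not cover such names. By the 2-fold rule given below, 28 of the 212 names tested were called higher at 7 dpi, with hsa-miR-1260 as 1 of them. The size of the log2 ratio of hsa-miR-1260 rests on the background, since its uninjured level is close to the detection level. It was 2.41 with the lower quartile of the miRNA spots as background, an alternative chosen after seeing the data, 0.95 with no background subtracted and 3.34 in the authors' deposited values. At 21 dpi no fold is given against the uninjured array, because the detection level there lies above the uninjured level. Between 7 and 21 dpi no fold is given either, because 1 spot at 21 dpi reads above all 7 dpi spots.

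The near-identical hsa-miR-1260b, 1 base apart by U9A, was far brighter and moved the other way at 7 dpi. Its spots read 1829, 1951 and 2073 on the uninjured array, 537, 553 and 601 at 7 dpi, and 1147, 2550 and 2823 at 21 dpi. The 7 dpi spots lie below all others, while those of the uninjured and 21 dpi arrays overlap. The log2 ratio was -1.82 (spots -1.95 to -1.61) at 7 dpi, against -1.38 for the shared names, and 0.39 (spots -0.85 to 0.63) at 21 dpi. By the median spot, 7 dpi was the highest array for hsa-miR-1260 and the lowest for hsa-miR-1260b. For hsa-miR-1260, however, 1 spot at 21 dpi read above all 7 dpi spots. Whether either probe binds the RNA of the other was not tested. The odd spots at 21 dpi are neighbours, as the bright spot of hsa-miR-1260 at row 108, column 12 of the array adjoins the dim spot of hsa-miR-1260b at row 109, column 12. Each spot of hsa-miR-1260 also lies beside a spike-in spot, which read 1039 to 1075, 1453 to 1827 and 4392 to 5655 on the uninjured, 7 dpi and 21 dpi arrays. The part of these neighbours in the signal of hsa-miR-1260 was not tested.

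The lysine tRNA names gave no signal above the detection level. The spots of hsa-miR-1274a read -9.00, -1.99 and -1.25 on the uninjured array, -4.68, -4.14 and -2.95 at 7 dpi, and -8.40, -6.78 and -6.11 at 21 dpi. Those of hsa-miR-1274b read -7.54, -3.74 and -1.56, then -5.03, -4.98 and -3.80, then -1.05, 8.91 and 10.1. All of these fall below the detection level of their array, and no fold is given. Whether the newt lysine tRNA sequences differ from these human targets was not tested.

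The mitochondrial rRNA name hsa-miR-1973 was lower at 7 dpi and near its uninjured level at 21 dpi. Its spots read 174, 222 and 273 on the uninjured array, 71.2, 72.8 and 73.1 at 7 dpi, and 131, 203 and 208 at 21 dpi. The 7 dpi spots lie below all others, and the uninjured and 21 dpi spots overlap. The log2 ratio was -1.61 (spots -1.94 to -1.25), 3.05-fold lower, at 7 dpi, and -0.13 (spots -1.07 to 0.26) at 21 dpi. Relative to the shared names the 7 dpi ratio was -0.23, with 90 of 134 higher, and relative to 5S rRNA it was -1.51, with all 14 probes higher. At 21 dpi these relative values were -0.52 and -0.49, with 107 names and all 14 probes higher. Relative to the spike-in median the ratio was -2.07 at 7 dpi and -1.59 at 21 dpi. By the median spot, its ratios to the uninjured array thus lay below the range of the 5S rRNA probes, but at 21 dpi its single spots reached into it. Those of hsa-miR-1826 lay inside the range of all 14 probes, though at 7 dpi above the bright ones. The dimmest of the 14 read 555 on the uninjured array, brighter than hsa-miR-1973, so the 2 names are not compared at like brightness.

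Counted over the list, a member was called different where its median spot differed at least 2-fold between 2 arrays without overlap of their spots and it was detected on at least 1 of them. Where it was detected on 1 array alone, the fold was that of its level there over the higher of the other array's detection level and its own level on it, and no call was made where this was under 1. The share called among all names tested by the same rule is the background. At 7 dpi against the uninjured heart, 1 of 5 members tested was higher, hsa-miR-1260, against a background of 13.2%, and 1 was lower, hsa-miR-1973, against 54.7%. At 21 dpi against the uninjured heart, hsa-miR-1280 and hsa-miR-720 were higher, 2 of 5 against 17.9%, and 0 were lower against 3.16%. At 21 dpi against 7 dpi, those names and hsa-miR-1973 were higher, 3 of 5 against 59.6%, and 0 were lower against 4.66%. The last share of higher members is close to its background. With 5 members, these counts describe the list and set it apart from nothing.

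The members did not move as a group. At 7 dpi, 4 of the 5 members detected on both arrays lay above the median of the shared names and 2 of 5 lay above the 5S rRNA median. At 21 dpi, 2 of 4 lay above each of these medians. The median member ratio was -0.39 at 7 dpi over 5 members and 0.73 at 21 dpi over 4, which leave out hsa-miR-1260. Over the same 4 members the 7 dpi median was -0.66. The other shared names stood at -1.38 and 0.38, and 5S rRNA at -0.10 and 0.35. These comparisons share the uninjured array, so the values of 7 and 21 dpi are not independent.

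Quantile normalization changed the members' differences at 7 dpi. After normexp background correction and quantile normalization, which gives every array the same distribution, hsa-miR-1826 had a log2 difference of 0.00 in each comparison, because it ranked first on every array. The difference at 7 dpi was 1.20 ± 0.03 (SE over 3 spots per array) for hsa-miR-1280, 0.55 ± 0.07 for hsa-miR-720, 1.33 ± 0.05 for hsa-miR-1260 and -0.47 ± 0.15 for hsa-miR-1973. For hsa-miR-1280 this is opposite in sign to the ratio of -0.39 before scaling, and scaling to 5S rRNA gave -0.30 and to the spike-ins -0.57. For hsa-miR-720 scaling to 5S rRNA gave -0.72 and to the spike-ins -0.99. By a 2-fold rule on the normalized values, without overlap of spots and with no bound, 2 of 5 members were higher at 7 dpi, hsa-miR-1280 and hsa-miR-1260, against 8.49% of all names tested, and 0 were lower against 1.89%.

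At 21 dpi the differences of hsa-miR-1280 and hsa-miR-720 from the uninjured heart held their sign under more scalings than at 7 dpi. After quantile normalization the differences were 0.95 ± 0.11 for hsa-miR-1280, 0.79 ± 0.08 for hsa-miR-720 and -0.53 ± 0.21 for hsa-miR-1973. The value for hsa-miR-1260 was 0.46 ± 0.39, but that name was not detected at 21 dpi, so its value cannot be read as a change. For hsa-miR-1280 and hsa-miR-720 the differences were positive before scaling, with quantile, cyclic loess, shared-name and 5S rRNA scaling and in the authors' values. They turned to -0.12 and -0.13 when scaled to the spike-ins. None of the 5 members passed 2-fold at 21 dpi, 0 higher against 1.05% of names and 0 lower against 1.58%, nor from 7 to 21 dpi, 0 higher against 3.11% and 0 lower against 8.81%. For hsa-miR-1826, cyclic loess gave 2.17 at 7 dpi and 0.55 at 21 dpi in place of 0.00. Shared-name, 5S rRNA and spike-in scaling gave 1.205, 0.197 and -0.075 at 7 dpi. At 21 dpi they gave -0.079, -0.093 and -0.994, so its sign there depended on the scaling.

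**Figure D4:**
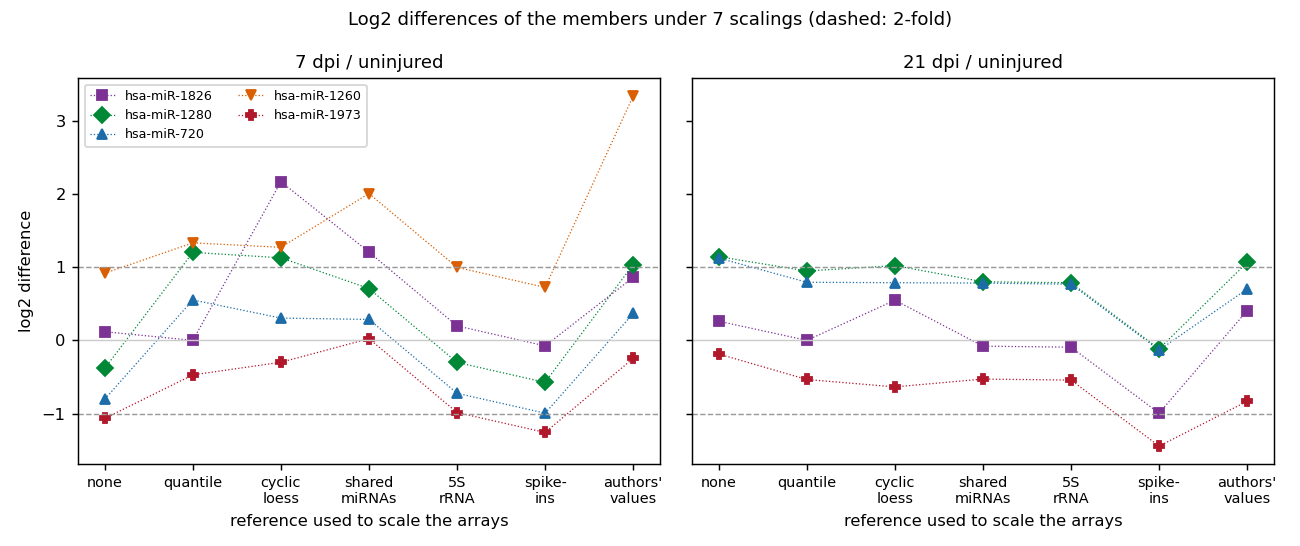
Log2 difference from the uninjured array under 7 ways of scaling the arrays, at 7 dpi on the left and at 21 dpi on the right. Dashed lines mark 2-fold, and dotted lines only link the symbols of a name. At 7 dpi hsa-miR-1280 runs from -0.57 with spike-in scaling to 1.20 with quantile normalization, while at 21 dpi it is negative with spike-in scaling alone.

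The authors' deposited values, whose scaling is described in no label or file, differed again. In these, hsa-miR-1826 stood at 27840, 50550 and 36900 on the uninjured, 7 dpi and 21 dpi arrays, a log2 ratio of 0.86 at 7 dpi against 0.09 before scaling. For hsa-miR-1280 they were 1825, 3741 and 3816, with log2 ratios of 1.04 and 1.06 at 7 and 21 dpi. For hsa-miR-720 they were 419, 540 and 681, and for hsa-miR-1973 they were 193, 163 and 108. In these values hsa-miR-1280 and hsa-miR-720 stood above the uninjured heart at 7 dpi, where the scanner intensities before scaling had both lower. They differ from the scanner intensities in background and in scaling. With no background subtracted, the unscaled 7 dpi log2 ratios were 0.09 for hsa-miR-1826 and -0.37 for hsa-miR-1280, close to 0.09 and -0.39 with the empty-spot background. Which step moved the members in the authors' values was not tested.

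The names whose pair of log2 ratios lay nearest to each member, among the other names detected on all 3 arrays, were found by Euclidean distance over these 2 values before scaling. Nearest to hsa-miR-720 was hsa-miR-92a at a distance of 0.08, with levels of 210, 116 and 500 on the 3 arrays. Nearest to hsa-miR-1280 was hsa-miR-17 at 0.25, with 100.2, 77.5 and 202. Nearest to hsa-miR-1973 was hsa-let-7c at 0.07, with 4450, 1447 and 4248. For hsa-miR-1826 the nearest names were farther off, hsa-miR-3141 at 0.66, hsa-miR-638 at 0.67 and hsa-miR-574-5p at 0.72. With 3 arrays a pattern has only these 2 values, so nearness describes them and no more.

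Of 22 other miRNA names on a list of names tied to noncoding RNA, 12 were on the array and 1 was detected on any array, hsa-miR-1260b, on all 3. Among all 1242 names, 138 were detected on all 3 arrays, so this count does not set the list apart. The tRNA names with signal were thus hsa-miR-1280, hsa-miR-720, hsa-miR-1260 and hsa-miR-1260b, and the rRNA names with signal were hsa-miR-1826 and hsa-miR-1973. The labelling adds an adapter to any RNA with a free 3′ end, so a short fragment and the whole tRNA or rRNA cannot be told apart on these arrays.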

How the data were processed

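Total RNA of 3 whole-heart samples was read on 1 array each, and the labels put 1 sample in each group. The deposited intensity is the median brightness of each of 5022 spots on a linear scale, with no background column, per the file headers. A table of the authors' processed intensities, 1 per probe, was also deposited, and its values are linear with the background removed. How it was scaled is stated in no label or file header. The design text speaks of paired hybridisations, but each file holds 1 channel of 1 sample, and values were treated as 1-colour.

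Levels were spot intensities minus the median of the empty spots, with a minimum of 1 before log2, and the median of 3 spots was used. The normalized values came from normexp (offset 50), log2, mean of spots and quantile normalization in limma 3.58.1 under R 4.3.3, and the rest from Python 3.11.15 with numpy 2.4.6 and pandas 2.3.3. Scaling to a reference subtracted the median over its probes of the log2 ratio between arrays. The calling steps were also run on simulated data, which checks the calculation alone and not the variation between arrays of a group. Detection, the 2-fold call and the references are defined in the results. Of 18 probes for 5S rRNA, 4 had no signal on any array, and the reference used the 14 detected. No significance test between groups was run, since each group has 1 sample, which also limits the precision.

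The rule for named probes took all 7 members, the 5S rRNA probes, for each member detected on all arrays the name with the nearest pair of log2 ratios (3 for hsa-miR-1826), the nearest target sequence, and names of the noncoding RNA list detected on all arrays. The members, lists and rules were chosen with earlier results of these data known. Alternatives covered background, spot summary, detection, threshold, normalization, the reference probes and the authors' values. Of liver markers, miR-122 was detected at 7 dpi alone, at a level of 85.2.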

Additional observations from a re-analysis of the deposited data

Results flagged for a closer look

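The names hsa-miR-1280 and hsa-miR-720 stood on opposite sides of the uninjured heart at the 2 times, with every spot lower at 7 dpi and every spot higher at 21 dpi before scaling. Their log2 ratios of 21 dpi over 7 dpi were 1.65 and 2.17. The difference was not tested, since each group has 1 array. Of the 134 other shared names, 122 were also lower than the uninjured heart at 7 dpi and 101 were higher at 21 dpi. By a joint count stricter than these signs, 56 of the 134 (41.8%) stood on opposite sides, against 2 of 4 members detected on all 3 arrays. The pattern therefore does not set the members apart. After quantile normalization neither hsa-miR-1280 nor hsa-miR-720 was below the uninjured heart at 7 dpi.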

How the results depend on the processing

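Each group has 1 array, so its number limits every statement, and dim members (hsa-miR-1260, hsa-miR-1274a, hsa-miR-1274b) have little signal over background. No paired analysis was possible because each group has 1 sample. The authors' values hold no 5S rRNA probes and give no value against them. Of the summary results, 60 values under an alternative were counted as the same and 48 as moved. Values counted as the same were not all identical and include some changed counts of members. The cause was not tested unless the alternative itself shows it. Members called before scaling at 7 dpi went from 2 to 1 with normexp, to 1 with no background and to 3 at 1.5-fold. For 21 over 7 dpi they went from 3 to 2 with no background and to 4 with overlap of spots allowed. With the authors' values they went from 2 to 1 at 21 dpi and from 3 to 1 for 21 over 7 dpi.

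The median member log2 ratio at 7 dpi (-0.39) became 0.86 in the authors' values and -0.66 without hsa-miR-1260, a setting chosen after seeing the data. At 21 dpi (0.73) it became 0.55 in the authors' values. For 21 over 7 dpi (1.56) it became 1.44 with the mean of spots, 1.32 with normexp, 1.27 with no background and -0.21 in the authors' values. Against 5S rRNA, the 7 dpi median (-0.29) became -0.56 without hsa-miR-1260, -0.44 with human probes, -0.066 with zebrafish probes and -0.39 with all 18 probes. At 21 dpi (0.38) it became 0.18 with human probes, 0.49 with frog probes and 0.54 with all 18. For 21 over 7 dpi (1.09) it became 0.85 with normexp, 0.80 with no background, 1.23 with frog probes and 1.23 with all 18. Against the shared names, the 7 dpi median (0.99) became 0.76 with normexp, 0.73 with no background, 0.80 in the authors' values, 0.72 without hsa-miR-1260 and 0.80 against names within 1 log2 unit in mean level. At 21 dpi (0.35) it became 0.46 in the authors' values and 0.80 against such names. For 21 over 7 dpi (-0.35) it became -0.15 with normexp, -0.15 with no background and 0.075 against such names.

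Calls after quantile normalization at 7 dpi went from 2 to 1 without normalization, 1 with spike-in scaling, 0 with 5S rRNA scaling and 3 with cyclic loess. At 21 dpi they went from 0 to 2 without normalization, 1 with cyclic loess, 1 with spike-in scaling, 1 in the authors' values and 2 at 1.5-fold. For 21 over 7 dpi they went from 0 to 2 without normalization, 1 with cyclic loess, 2 with shared-name scaling, 2 with 5S rRNA scaling, 1 with spike-in scaling, 1 with the median of spots, 1 in the authors' values and 1 at 1.5-fold. For hsa-miR-1280 at 7 dpi the normalized difference turned to -0.38 without normalization, -0.57 when scaled to the spike-ins and -0.30 when scaled to 5S rRNA. For hsa-miR-1973, 21 over 7 dpi turned from 1.48 to -0.59 in the authors' values.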
